A study of Mus musculus with 5 samples.

Results

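The genes described here are 10 markers of GABAergic interneurons of the mouse hippocampus, chosen by symbol. They are the enzymes Gad1 and Gad2, the vesicular transporter Slc32a1, the neuropeptides Sst, Npy, Vip and Cck, the calcium-binding proteins Pvalb and Calb2, and the secreted glycoprotein Reln. They were taken from 19087 genes with a symbol, and 18 of the 44290 features of each array carried one of their symbols. The assay was a whole-genome oligonucleotide array read in a pair of colours, and there were 5 such arrays. Each array set RNA of 1 offspring sample of cocaine-injected CD1 dams, labelled with Alexa 647, against 1 sample of saline-injected CD1 dams, labelled with Alexa 546. Cocaine dams received 20 mg/kg under the skin 2 times a day from gestational day 8 to 19, and saline dams got the vehicle on the same schedule. In both groups the dams were pair-fed, the litters were raised by surrogate dams, and the tissue came from male pups on postnatal day 3. The tissue was the laser-dissected pyramidal layer, all 3 fields cut out as a whole, so that the cut took in whatever interneurons lay within the layer.

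Interneurons make the inhibitory transmitter GABA from glutamate with the enzymes encoded by Gad1 and Gad2, load it into vesicles with the transporter encoded by Slc32a1, and release it onto pyramidal cells. Hippocampal interneurons are commonly divided by the peptides and calcium-binding proteins they carry. Pvalb and Sst mark classes born mainly in the medial ganglionic eminence, and Vip, Calb2 and many Cck cells come mainly from the caudal one. Reln is made by Cajal-Retzius cells of the marginal zone in the newborn hippocampus as well as by interneurons, and Cck and Calb2 are also found in principal neurons. In the rodent forebrain Pvalb appears late in postnatal development.

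All values below are log2 ratios, cocaine over saline, relative to the median of the array. The direction is not stated in the sources used here and is likely rather than certain, resting on the channel order and on the form of the ratios in the study. The table held no intensities, so no gene has a level here, and whether the defining markers of the pyramidal layer were present could not be checked. No array had the dyes swapped, so dye and treatment cannot be told apart. Before centring, the array medians ran from -2.68 to 0.26, with arrays 1 and 2 far below arrays 3 to 5. Measured features ran from 19745 on array 5 to 39470 on array 1. Ratios of small whole numbers, which come from few distinct readings, were 34.0% and 38.2% of the measured values on arrays 1 and 2, against 85.8% to 86.7% on arrays 3 to 5. The labels do not say that the arrays came from separate litters, so the p-values given here reflect array-to-array spread alone, some or all of which may be technical. In tissue pieces such as these, fewer cells of a type and less RNA per cell cannot be told apart.

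To show the sequence around the starts of the genes, RefSeq promoter entries of GRCm38.p6 were read for 9 of the 10 genes; Calb2 was not among them. The cyclic AMP response element, TGACGTCA, and its core TGACG, searched on both strands, were counted in the 150 bases before each annotated start. The full element contains the core on both strands. It stood in 1.36% of all 32851 windows and, among these genes, in that of Sst alone. The core stood in 13.3% of all windows and in those of Sst, Vip, Cck and Gad2, 4 of the 10 windows of these genes (Pvalb has more than 1 start). The following stretches are given in the direction of transcription, with the element or core in capitals and its first base 48, 79, 47 and 33 bases before the start. Sst is at chr16:23890875-23890904 on the minus strand, Vip at chr10:5639127-5639156 on the plus strand, Cck at chr9:121495724-121495753 on the minus strand and Gad2 at chr2:22622282-22622311 on the plus strand.
Sst: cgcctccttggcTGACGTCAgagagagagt
Vip: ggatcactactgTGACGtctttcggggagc
Cck: cctgctggactgCGTCAgcactgggtaaac
Gad2: ccatttcccttcCGTCActctctcatctcc
The Sst and Gad2 stretches lie inside longer annotated transcripts of the same genes, so they precede only the start used by the promoter entry. The matches are letters in a window and no more. The genes that carried them did not share a pattern across the arrays: Sst was highest on array 2, the array on which Vip was lowest.

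Neither GABA-synthesising enzyme passed the test across all genes, and Gad2 came nearest of all 10 genes. Gad2, the smaller glutamic acid decarboxylase, which is bound to synaptic vesicles, had log2 ratios of 0.51, 2.90, 2.00, 0.54 and 2.13 on arrays 1 to 5. It lay above the array median on 5 of 5 arrays. Its lower values were on arrays 1 and 4, the only arrays on which both of its features were measured. Its mean was 1.61 ± 1.05 (SD, n = 5), a ratio of 3.06 with a 95% interval of 1.51 to 6.23 (limma adjusted p = 0.0563 over all genes). With the signs of the arrays flipped in every combination, the exact two-sided permutation p was 0.0625, the smallest that 5 arrays allow. Gad1, which makes most of the GABA of the cell body, had log2 ratios of -0.19, 0.51, 0.50, 1.00 and 0.12. It lay between percentiles 44.2 (array 1) and 76.5 (array 4) of the genes measured on each array. Its mean of 0.39 ± 0.45 (SD, n = 5) had a 95% interval of -0.52 to 1.30 and a limma adjusted p of 0.61. Array by array, Gad2 minus Gad1 averaged 1.22 ± 1.13 (SD, n = 5), with Gad2 higher on 4 of 5 arrays. That pair of genes was set side by side after their values were seen, so the difference was not tested. It also depends on which features of each gene were measured on an array, as given next.

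For both enzymes the features of 1 gene disagreed. The Gad2 value rested mainly on the feature designed from transcript AK018118, which read 1.92, 2.90, 2.00, 1.20 and 2.13, above the median on 5 of 5 arrays with a mean of 2.03. The other Gad2 feature, designed from NM_008078, was measured on arrays 1 and 4 only, at -0.91 and -0.12, and was listed at 0 on the rest. On arrays 2, 3 and 5 Gad2 is thus the reading of a single feature. With zeros kept, the Gad2 mean was 0.95 (limma adjusted p = 0.334). A Gad1 feature designed from AK054554 read -1.75, -0.67, -1.54, 0.52 and -1.11, with a mean of -0.91. Its partners designed from NM_008077 averaged 0.89 over 3 arrays and 1.53 over 4, the second of them above the median on all 4. The means of the lowest and highest feature lay 2.44 apart in Gad1 and 2.54 apart in Gad2, and 0.52 or less apart in Cck, Calb2 and Reln. Which part of the transcript each feature reads was not stated in the sources used here.

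Slc32a1 encodes the transporter that fills synaptic vesicles with GABA. Its log2 ratios were 0.31, 4.47, 0.17, 0.18 and 1.74 on arrays 1 to 5. It stood above the median on 5 of 5 arrays, close to it on 3 of them and far above it on array 2. The mean was 1.37 ± 1.85 (SD, n = 5), with a 95% interval of 0.094 to 2.65 (limma adjusted p = 0.18, and exact sign-flip p = 0.0625). Without array 2 the mean was 0.60 (limma adjusted p = 0.511).

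**Figure D1:**
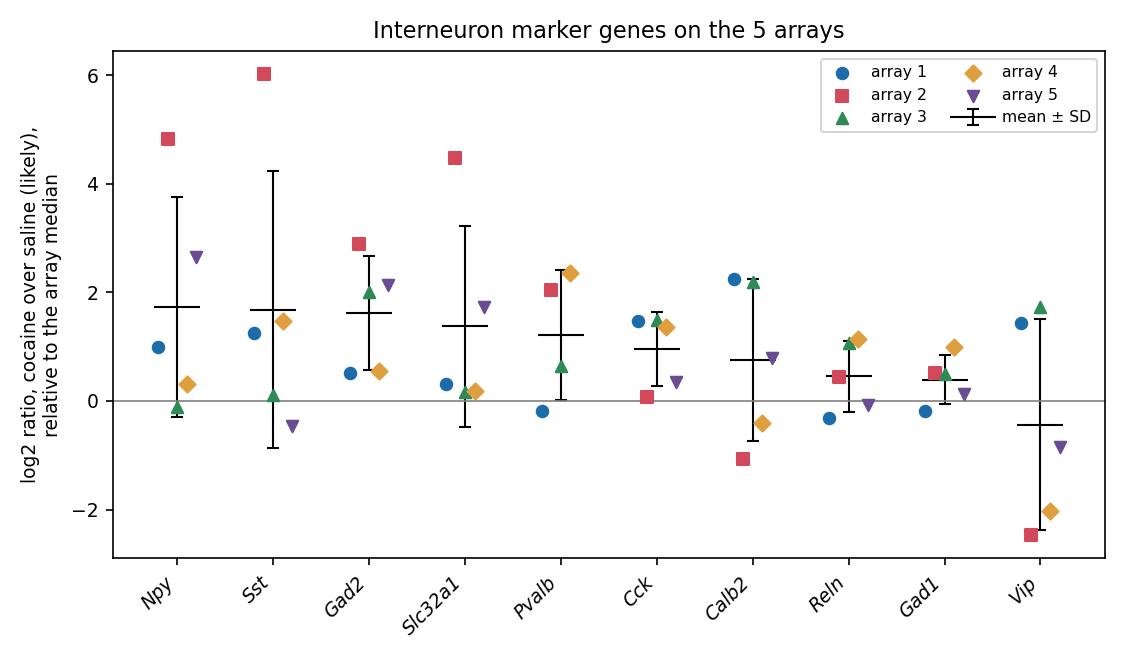
Log2 ratio, cocaine over saline relative to the array median, of each of the 10 genes on each of the 5 arrays, with the mean (horizontal line) and 1 SD either side, in order of the means. Array 2 holds the highest points for Sst, Npy and Slc32a1, and 9 of 10 means lie above 0 on this scale, whereas uncentred values put 6 and centring on ribosomal protein genes all 10 below 0.

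Somatostatin and neuropeptide Y, which mark overlapping sets of dendrite-targeting interneurons, had the highest means of the 10 genes and also some of the widest spreads. Sst had log2 ratios of 1.25, 6.02, 0.12, 1.47 and -0.46 on arrays 1 to 5. The value on array 2 was at percentile 99.98 of the genes measured there, and the value on array 5 was below the median. Its mean of 1.68 ± 2.55 (SD, n = 5) did not pass (limma adjusted p = 0.176 and exact sign-flip p = 0.1875). Without array 2 it was 0.595 (limma adjusted p = 0.531). Npy had log2 ratios of 0.99, 4.82, -0.11, 0.31 and 2.64. Arrays 2 and 5 stood at percentiles 99.5 and 98.2, and array 3 just below the middle, at 47.3. The mean of 1.73 ± 2.02 (SD, n = 5) had a 95% interval of 0.39 to 3.07 (limma adjusted p = 0.11; exact sign-flip p = 0.125). Without array 2 the Npy mean was 0.96 (limma adjusted p = 0.333).

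The other peptides did not share that pattern. Cholecystokinin, Cck, carried by a class of basket cells and by pyramidal neurons, had log2 ratios of 1.48, 0.080, 1.49, 1.37 and 0.35. It was above the median on 5 of 5 arrays, with arrays 2 and 5 lowest. Its mean was 0.95 ± 0.68 (SD, n = 5), with a 95% interval of 0.0098 to 1.89 (limma adjusted p = 0.206; exact sign-flip p = 0.0625). Both Cck features averaged above 0, at 1.25 for that designed from NM_031161 and 0.73 for that designed from BC028487. Vasoactive intestinal peptide, Vip, many of whose cells contact other interneurons, had log2 ratios of 1.43, -2.48, 1.73, -2.03 and -0.85. It was thus high on arrays 1 and 3, at percentiles 87.4 and 88.8, and low on arrays 2 and 4, at 4.54 and 7.93. The mean was -0.44 ± 1.94 (SD, n = 5), with a 95% interval of -1.75 to 0.87 (limma adjusted p = 0.703; exact sign-flip p = 0.625). Without array 2 the mean lay on the other side of 0, at 0.071 (limma adjusted p = 0.964).

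Calretinin, Calb2, which marks interneuron-selective cells and also Cajal-Retzius cells, had log2 ratios of 2.25, -1.07, 2.20, -0.41 and 0.80. Like Vip it was highest on arrays 1 and 3 and lowest on arrays 2 and 4. Its mean was 0.75 ± 1.50 (SD, n = 5), not distinguishable from 0 (limma adjusted p = 0.421; exact sign-flip p = 0.375). Its 3 features gave means of 0.74, 0.88 and 0.59, and each read its highest values on arrays 1 and 3. Parvalbumin, Pvalb, the marker of fast-spiking basket and axo-axonic cells, had log2 ratios of -0.19, 2.05, 0.64 and 2.36 on arrays 1 to 4 and was listed at 0 on array 5. Its mean over 4 arrays was 1.22 ± 1.20 (SD, n = 4), with a limma adjusted p of 0.201. The exact sign-flip permutation p was 0.25, where 4 arrays can give no less than 0.125.

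Reelin, Reln, which guides the layering of hippocampal neurons, had log2 ratios of -0.31, 0.43, 1.07, 1.14 and -0.069. Arrays 2 to 4 were above the median and arrays 1 and 5 below it. The mean of 0.45 ± 0.65 (SD, n = 5) did not pass (limma adjusted p = 0.562; exact sign-flip p = 0.25). Its 3 features averaged 0.43, 0.25 and 0.70, and that designed from NM_011261 was above the median on 5 of 5 arrays.

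**Figure D2:**
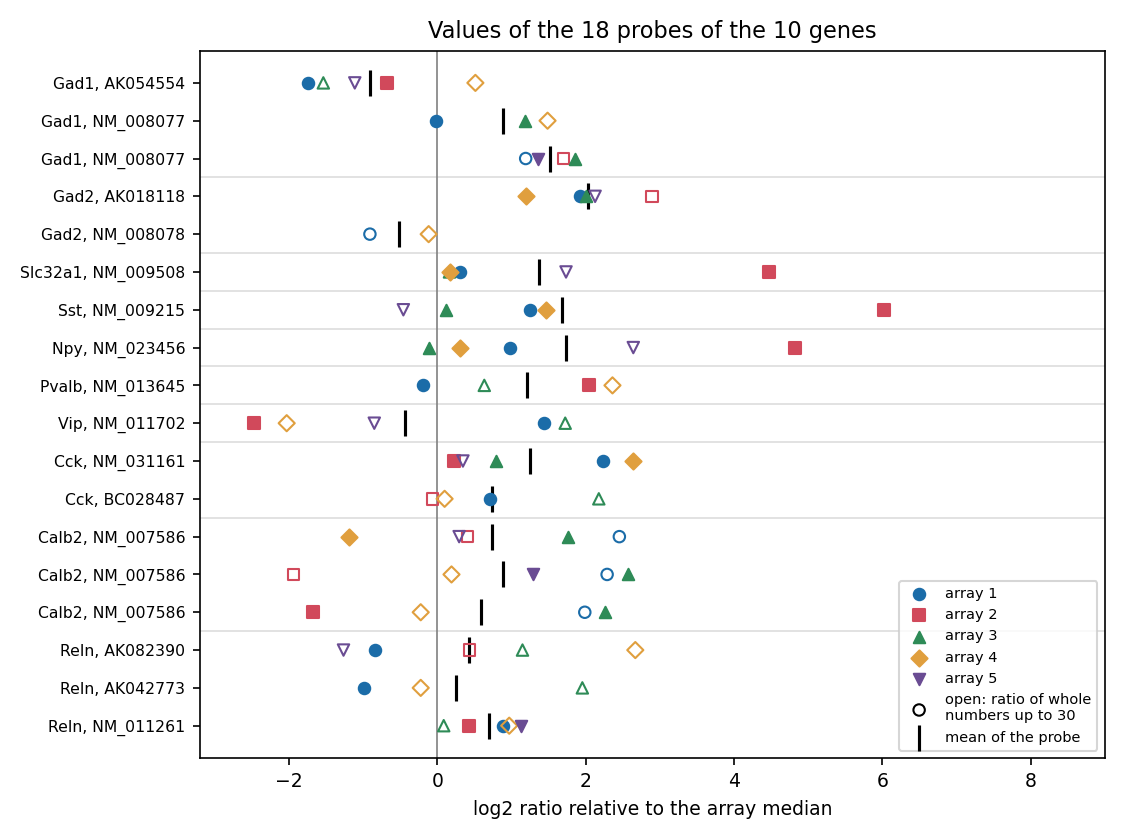
Log2 ratio, cocaine over saline relative to the array median, of each of the 18 features on each of the 5 arrays, grouped by gene, with open symbols for ratios of small whole numbers and a bar at the mean. All 3 features of Calb2 are highest on arrays 1 and 3, whereas those of Gad1 and of Gad2 lie on opposite sides of 0 on average.

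Over the 10 genes, 0 passed limma's adjusted threshold of 0.05 in either direction. Of all 28035 genes and unnamed features tested, 7.05% passed (5.89% higher, 1.16% lower, and 5.93% higher among genes with a symbol). One-class SAM called 0 of the 10 as well, a count given here without the SAM share over all genes. In simulated data SAM recovered 22 of 100 genes changed by 2 log2 units, against 66 with limma, with 7 and 14 false calls. The changed genes there had a normal spread and values on all 5 arrays, unlike Pvalb. SAM's 0 therefore says little about changes of 2 log2 units or smaller, and limma's 0 does not show their absence either. The highest of the 10 means was 1.73. At an unadjusted limma p under 0.05, 6 of the 10 were higher (Gad2, Npy, Sst, Slc32a1, Pvalb and Cck) and 0 lower, against backgrounds of 13.4% higher and 10.4% lower. By the same count 5 of 11 peptide processing genes and 4 of 10 astrocyte and radial glia markers were higher and 0 lower. Of 15 pyramidal neuron markers 5 were higher and 1 lower, and of 5 red blood cell genes 3 were higher and 1 lower. Of 14 receptors for the peptides and for reelin, 1 was higher and 3 lower. The 6 of 10 also depended on the processing. At that unadjusted p, in either direction, 0 of the 10 remained with zeros kept, against 5138 of 31330 over all genes. With the ceiling kept 1 remained (4661 of 28504 over all), and uncentred 1 (13084 of 28035). Leaving out 1 array gave 3 to 5, with 3 without array 2 (5037 of 23616 over all). In order of their means the genes ran Npy, Sst, Gad2, Slc32a1, Pvalb, Cck, Calb2, Reln, Gad1 and Vip. The 95% intervals of every neighbouring pair in that order overlapped. Means above the array median were found for 9 of the 10, against 44.2% of all genes, and the median of the 10 means was 1.08, against -0.14 over all genes. Being above the array median on all 5 arrays held for 3 of the 9 genes measured on all of them (Gad2, Slc32a1 and Cck), against 23% of all such genes. These counts depend on the level to which arrays are set: uncentred, only Gad2, Slc32a1, Sst and Npy kept means above 0, with an all-gene median of -1.52, and with arrays centred on ribosomal protein genes none did, with an all-gene median of -2.23. The median of the 10 was -0.32 uncentred and -1.002 on the ribosomal scale; such a change of level moves all genes of an array alike.

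The medians of the 10 genes on arrays 1 to 5 were 0.75, 1.28, 0.85, 0.77 and 0.35. Genes above the array median numbered 7, 8, 9 and 8 of 10 on arrays 1 to 4 and 6 of 9 on array 5. The array that was highest differed from gene to gene. Array 2 held the highest value of Gad2, Slc32a1, Sst and Npy and the lowest of Vip, Calb2 and Cck. Of the 90 readings of the 18 features, 79 were measured and 11 were listed at 0, of which 6 were on array 5. A 0 may be a missing reading or a true ratio of 1. Small whole-number ratios accounted for 39 of the 79, or 49.4%, against 62.3% over all named features. They were 1 of 5 readings for Sst and for Npy and 2 of 5 for Slc32a1. The shares were 4 of 9 for Cck, 6 of 12 for Gad1, 2 of 4 for Pvalb and 4 of 7 for Gad2. For Calb2 it was 8 of 14, for Vip 3 of 5 and for Reln 8 of 13. Pvalb and Vip could not be tested without such ratios. With such ratios left out, Gad2 (mean 1.71, limma adjusted p = 0.0269) and Sst (mean 2.21, limma adjusted p = 0.0328) passed, 2 of the 8 genes still tested, but so did 2614 of all 5222 genes (2521 higher), a larger share. The median of those 8 was then 1.39, against 1.37 over all genes, so that they no longer stood above the rest.

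**Figure D3:**
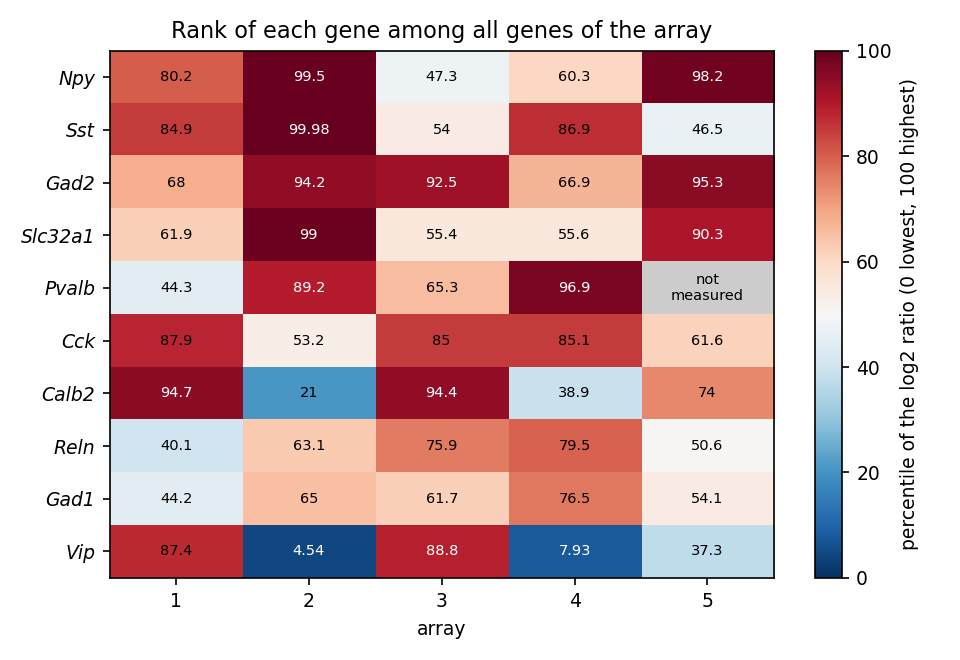
Percentile of each of the 10 genes among the genes and unnamed features measured on the same array, for arrays 1 to 5, coloured from low to high, where 50 is the middle gene of the array. Sst reaches 99.98 on array 2, and Vip runs from 4.54 on array 2 to 88.8 on array 3.

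Other genes of the same pathways and cells, not limited to interneurons, were counted from lists by role, against 5.89% higher and 1.16% lower over all features. Of genes that process or package neuropeptides, 2 of 11 rose and 0 fell, with a list median of 1.04. They were Pcsk1n, an inhibitor of a prohormone convertase, at 1.89 ± 0.94 (SD, n = 5; limma adjusted p = 0.0266), and Cpe, a carboxypeptidase that trims peptides to their final length, at 1.80 ± 0.92 (SD, n = 5; limma adjusted p = 0.0321). Among 16 further interneuron markers 1 rose, Cort, a peptide closely related to somatostatin, and 0 fell, a share near that of all features. Cort had log2 ratios of 3.16, 4.10, 1.88, 1.80 and 0.66 and a mean of 2.32 ± 1.33 (SD, n = 5; limma adjusted p = 0.0178), above the median on every array. Like Sst it was highest on array 2 and lowest on array 5. Of 15 transcription factors of the interneuron lineage 1 rose and 0 fell, again near that share. This was Nr2f1, at work in caudal interneuron precursors and in pyramidal neurons, at 1.64 ± 0.24 (SD, n = 5; limma adjusted p = 0.0294).

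Of 14 receptors for the peptides and for reelin, 0 rose and 1 fell, with a list median of -0.33, against -0.14 over all genes. Npy1r, the Y1 receptor of neuropeptide Y, was measured on arrays 1, 3 and 4 only, at -2.05, -2.63 and -3.31, and its mean of -2.66 ± 0.63 (SD, n = 3) passed (limma adjusted p = 0.0201). Npy itself was at 0.99, -0.11 and 0.31 on those arrays. Npy1r was listed at 0 on arrays 2 and 5, and with zeros kept its mean was -1.37 (limma adjusted p = 0.399). Among 7 genes of GABA uptake and breakdown 0 passed with limma, 1 at an unadjusted p under 0.05, and the list median was 0.36. The smallest p values there belonged to the GABA transporters Slc6a12, at 1.63 ± 0.78 (SD, n = 4; limma adjusted p = 0.0726), and Slc6a11, at 0.80 ± 1.00 (SD, n = 5; limma adjusted p = 0.322). Calls over all genes dropped to 76 without array 2 and 64 without array 1, from 1976. Every call named for these lists was lost without array 2 (limma adjusted p from 0.0614 for Npy1r to 0.0945 for Pcsk1n), with means close to those above: Npy1r, not measured on array 2, stayed at -2.66, Cpe was at 1.86, Nr2f1 at 1.72, Cort at 1.87 and Pcsk1n at 1.57. All except that of Npy1r, which could not be tested there, were also lost without array 1 (0.0754 to 0.126), with means of 1.42 for Cpe to 2.11 for Cort. Cpe and Nr2f1 were lost without array 3 as well (0.0655 and 0.0656), and Nr2f1 without array 4 (0.0582). On the ribosomal scale Cpe, Pcsk1n, Nr2f1, Slc6a12 and Slc6a11 had means below 0, as Slc6a11 also had uncentred (-0.42). Slc6a11 was at 0.38 without array 2. Cort kept its sign but not its call, at 1.10 uncentred (limma adjusted p = 0.221) and 0.28 on the ribosomal scale (0.699). With zeros kept, calls over all genes fell to 62. Cort then lost its call (limma adjusted p = 0.0804), as did Nr2f1 (0.117), Cpe (0.132) and Pcsk1n (0.144).

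Markers of other cells that a cut through the layer could hold are given beside these values, against 5.89% higher and 1.16% lower over all features. Of 15 pyramidal neuron markers 1 rose and 0 fell, near that share. It was Slc17a6, a vesicular glutamate transporter, at 1.87 ± 0.84 (SD, n = 4, limma adjusted p = 0.0443). The list median was 0.44 and 9 of the 15 means lay above 0, while Neurod1 was at -1.31 (limma unadjusted p = 0.0169). Of 10 astrocyte and radial glia markers 1 rose, Fabp7, a fatty acid binding protein, at 2.34 ± 1.07 (SD, n = 5; limma adjusted p = 0.0143), with a list median of 0.43. The median of the astrocyte list was highest on array 2, at 1.44, as was that of the pyramidal list, at 0.98, and of the 10 interneuron genes. Of 9 Cajal-Retzius cell markers, a list that shares Reln and Calb2 with the 10 genes, 0 passed with limma and 1 was lower at an unadjusted p under 0.05. Its median was -0.32, and Ndnf and Lhx5 were at -1.14 and -0.78 (limma adjusted p = 0.142 and 0.376). Red blood cell genes stood far higher: 3 of 5 rose, Hba-a1 and Hba-a2 at 3.26 each (limma adjusted p = 0.0122) and Hbb-bt at 2.78 (0.0134), and Slc4a1, the band 3 anion exchanger, fell to -2.04 (0.0321). Hba-a1 and Hba-a2 are near-identical copies that the same probe can read. The red cell list median by array was 3.28, 4.61, 1.09, 3.74 and 1.63, highest on array 2. The calls of Slc17a6, Fabp7, the globins and Slc4a1 were lost without array 1 (limma adjusted p from 0.0649 to 0.161) and without array 2 (0.0614 to 0.108), while their means moved little: without array 2 Slc17a6 was at 1.98, Fabp7 at 1.99, Hba-a1 at 2.82 and Slc4a1 at -1.83. The call of Slc17a6 was also lost without array 3 (0.118). On the ribosomal scale Slc17a6 had a mean below 0 and Fabp7 was at 0.29 (limma adjusted p = 0.679). There Hba-a1 and Hba-a2 were at 1.22 each and Hbb-bt at 0.74, none of them called (limma adjusted p = 0.108, 0.11 and 0.317). Uncentred, Hba-a1 and Hba-a2 were still called (0.0315 and 0.0312), but Hbb-bt was not (0.088). Slc4a1 was called on both scales (0.00139 ribosomal and 0.00276 uncentred). With zeros kept, the calls of Slc17a6, Fabp7, the globins and Slc4a1 were all lost (limma adjusted p from 0.072 to 0.242). The part of these cells in the ratios of the 10 genes was not tested.

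Dentate granule cell, oligodendrocyte, microglia and endothelial lists had 0 calls with limma among 5, 8, 8 and 9 genes, with 0, 1, 0 and 2 at an unadjusted p under 0.05, and medians of -0.18, -0.03, -0.06 and -0.35. Their genes with the smallest p were Tdo2 and Dsp at -0.53 and -0.54 (limma adjusted p = 0.516 and 0.571), Olig1 and Mog at 1.50 and -0.73 (0.0864 and 0.431), P2ry12 and Itgam at -1.02 and -0.70 (0.252 and 0.429), and Cldn5 and Flt1 at 1.51 and -0.96 (0.0873 and 0.182). The 10 interneuron genes and the peptide processing list had the highest medians of these lists after red blood cell genes.

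**Figure D4:**
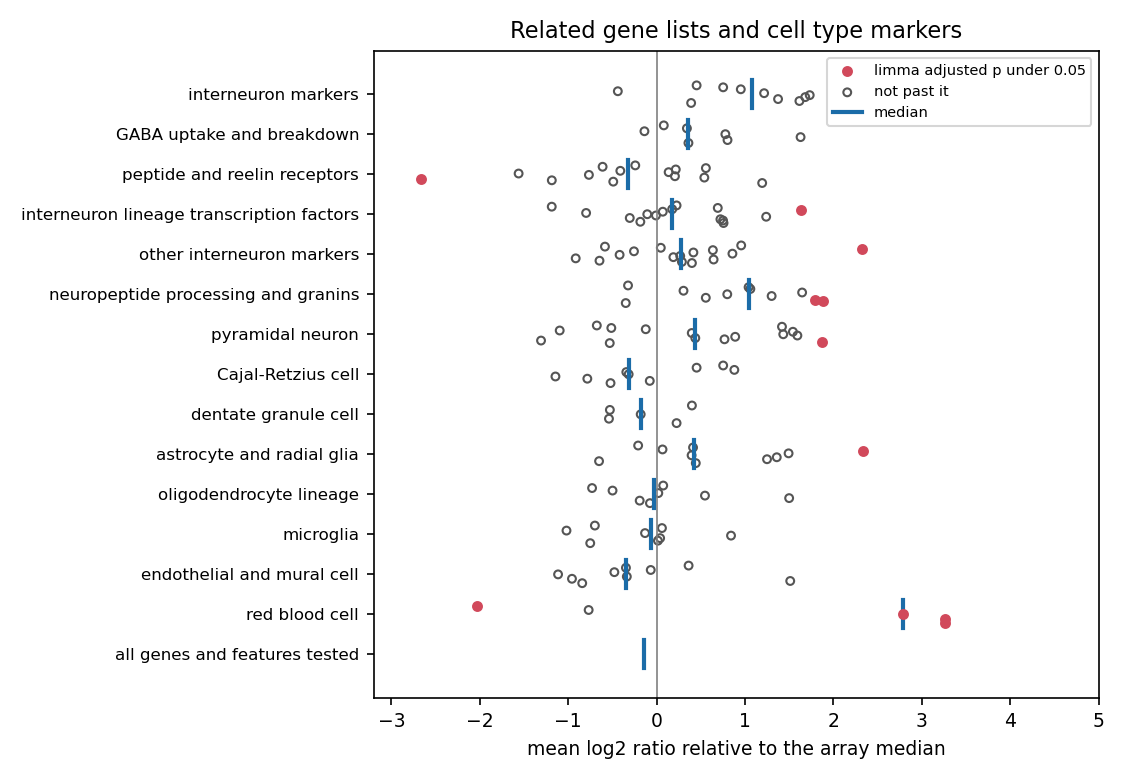
Mean log2 ratio, cocaine over saline relative to the array median, of every tested gene of each list, with the list median marked and genes at a limma adjusted p under 0.05 set apart. The 10 interneuron genes have a median of 1.08 and no gene past the threshold, and the red blood cell list a median of 2.78; centred on ribosomal protein genes, the median of the 10 was -1.002, and uncentred -0.32.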

How the data were processed

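For 5 arrays of 44290 features, the authors deposited log2 ratios of the channels, with the direction not stated. Labels give laser dissection and dye-carrying labels; image reading, background removal and normalization are not given in the sources used here, and the log base was read off the values. Exact zeros and the ceiling of 16.61 were treated as not measured and each array was centred on its median. By the platform annotation 32042 features had 1 symbol, 47 several and 12201 none; 31906 symbols matched RefSeq GRCm38.p6 (names only) and 136 were kept. Features of 1 symbol were averaged, and those with several or none were tested singly. The test was limma (version 3.58.1, R 4.3.3) with only an intercept and empirical Bayes moderation, over the 28035 genes with values on 3 or more arrays, and the threshold was a p of 0.05 after Benjamini-Hochberg adjustment. One-class SAM over 16 sign patterns at a false discovery rate of 5% and exact two-sided sign-flip tests were added. The fit was tested on simulated data. A ratio of small whole numbers is one whose deposited value equals, to 3 decimals, the log2 ratio of whole numbers up to 30. The number of arrays limits the precision.

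The members and lists were chosen with earlier results of these data known. All 10 members are named; in each other list, up to 4 genes past the threshold are, or the 2 with the smallest p. Of 159 list genes, 21 were not tested. Alternatives covered reference level (the other being the median of 73 ribosomal protein genes), scale, zeros, ceiling, each array left out, small ratios, probe averaging, the variance model and weights. Zeros with ceiling kept, and arrays 1 and 2 or 3 to 5 alone, were added after seeing the data. Promoter sequences are from RefSeq.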

Additional observations from a re-analysis of the deposited data

Results flagged for a closer look

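Among the 32 genes examined for 1 array far from the others of a group of 4 or 5, Dsp, a desmosome gene used as a dentate granule cell marker, stood apart: it read 0.975 on array 3, against -0.959 for the nearest of the other 3 arrays, a gap of 0.907 of its whole range. Chance gives a gap large enough to be flagged in about 1 of 20 genes. None of the 10 interneuron genes was flagged, although Sst read 6.02 on array 2, against 1.47 for the nearest of its other arrays.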

How the results depend on the processing

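Each array is itself 1 cocaine sample against 1 saline sample, so every test of the ratios was already paired within arrays. All 5 arrays form 1 group. The number of genes called rested on the reference level and on how unmeasured values were read: 1976 (1651 higher, 325 lower), 8174 uncentred (63 higher, 8111 lower), 19646 centred on ribosomal protein genes (39 higher, 19607 lower), 62 with zeros kept, 0 with the ceiling kept (4661 at an unadjusted limma p under 0.05), 0 with both kept (3740), 0 for arrays 3 to 5 alone (2722), and 64 to 1950 leaving out 1 array, with 64 without array 1 and 76 without array 2. Of the 10 genes, 3 were called on the ribosomal scale, all lower (Gad1, Vip and Reln), 1 of 9 among genes measured on all 5 arrays (Gad2, limma adjusted p = 0.0246; 2200 of all 11731), 2 of 8 without small ratios (Gad2, Sst; 2614 of all 5222) and 1 of 10 on arrays 1 and 2 alone (Sst, limma adjusted p = 0.0407, assuming a spread like that of the other genes; 1548 of all 25551). Leaving out any 1 array gave 0. Their median was -0.32 uncentred, -1.002 on the ribosomal scale, 0.68 with zeros kept, 0.68 with zeros and ceiling kept, 0.71 on arrays 3 to 5 alone, and 0.77 to 1.23 leaving out 1 array.

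Means changed sign uncentred for Gad1 (-0.83), Pvalb (-0.37), Cck (-0.27), Calb2 (-0.47), Reln (-0.77), Slc6a11 (-0.42), Olig1 (-0.089) and Cldn5 (-0.077). On the ribosomal scale they did so for Gad1 (-1.65), Gad2 (-0.43), Slc32a1 (-0.67), Sst (-0.36), Npy (-0.31), Pvalb (-0.91), Cck (-1.09), Calb2 (-1.29), Reln (-1.59), Slc6a11 (-1.24), Slc6a12 (-0.50), Nr2f1 (-0.40), Pcsk1n (-0.15), Cpe (-0.25), Slc17a6 (-0.26), Olig1 (-0.63) and Cldn5 (-0.62). With the ceiling kept Dsp was at 2.76 and Flt1 at 1.33, and with zeros kept too at 1.12 and 0.73. Vip was at 0.071 without array 2, within a range of -0.98 to 0.071 over the arrays left out in turn, and Tdo2 at 0.39 on arrays 1 and 2 alone. The sign changes under other reference levels follow from the level to which each array is set; the cause of the others was not tested. Over up to 18 alternatives each, limma adjusted p ran from 0.0246 to 0.668 for Gad2, 0.0328 to 0.746 for Sst and 0.0645 to 0.674 for Npy.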
